A study of Homo sapiens with 15 samples.

Results

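Collagen hydroxylases and lysyl oxidases are enzymes that modify collagen and related proteins with the use of molecular oxygen. Of 43388 gene symbols with counts, 10 were followed: the lysyl hydroxylases PLOD1, PLOD2 and PLOD3, the prolyl 4-hydroxylase subunits P4HA1, P4HA2 and P4HB, the lysyl oxidases LOX, LOXL2 and LOXL4, and the aspartyl/asparaginyl hydroxylase ASPH. They were named by family. PLOD2 was also chosen by a measured value, an effect of all-trans retinoic acid (ATRA) that differed between oxygen exposures, so its values are a description with no test. RNA was sequenced from A549, an established line of human lung adenocarcinoma with epithelial features, carrying no engineered change. Cells grew in medium with fetal bovine serum and were kept for 72 h in hyperoxia (95% oxygen) or normoxia (21% oxygen). ATRA cultures were given 1e-05 mM ATRA for 24 h before the exposure, vehicle cultures were given ethanol for the same time, and for untreated cultures the labels name neither.

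Each oxygen exposure had 3 ATRA libraries, 2 vehicle libraries and 2 untreated libraries, 14 in all. The hyperoxia groups were therefore hyperoxia with ATRA, hyperoxia with vehicle and hyperoxia untreated, and the normoxia groups had the same treatments at 21% oxygen. Libraries are named by group and a replicate number given here in order of deposit, and the labels pair no libraries across groups. The labels do not say that the libraries of a group came from separate cultures, so p-values measure only the spread between these libraries, which may be technical. All groups were the same cell line, so nothing here extends to other cells.

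Lysyl and prolyl hydroxylases act on new collagen chains in the endoplasmic reticulum and need oxygen, iron, 2-oxoglutarate and ascorbate. Hydroxyproline stabilises the collagen triple helix, and hydroxylysine carries sugars and shapes the cross-links between collagen molecules. Lysyl oxidases are copper enzymes that work outside the cell and start those cross-links. Several of these genes, PLOD2, P4HA1 and LOX among them, are known as targets of hypoxia-inducible factor (HIF), whose own hydroxylases also use oxygen.

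Gene counts ran from 2642377 to 5605072 per library (median 4038111.5), so that 3 counts, the limit that a count of 0 allows, were worth 0.535 to 1.14 CPM (a count scaled to the library's total of gene counts). Such limits cover counting error only. Levels are CPM scaled by TMM, a factor that corrects for library composition. Of all genes, 14957 passed a filter on low counts in the fit of the 10 vehicle and ATRA libraries and 15339 in the fit of all 14 libraries, and all 10 members passed both. Differences between groups were tested with edgeR's quasi-likelihood test, with p-values adjusted by Benjamini-Hochberg over all genes tested, and a gene was called at an adjusted p under 0.05.

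Certain libraries stood apart. In a principal component analysis of the 14 libraries, hyperoxia untreated replicate 1 lay at 198.9 on component 1 and the other 13 lay between -35.64 and 9.27, while component 2 separated the oxygen exposures among those 13. That library had 508 genes with 1 to 3 counts, hyperoxia ATRA replicate 1 had 855, hyperoxia ATRA replicate 2 had 1593 and normoxia ATRA replicate 2 had 1749, whereas the other 10 had 2588 to 3657. The oxygen and ATRA comparisons were therefore also run without these 4 libraries, at a limit of 2000 genes chosen after seeing the data. No replicate pair was alike within sampling noise, with a chi-square per degree of freedom of 3.98 to 31.5.

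Markers of cell identity moved with oxygen. All 8 epithelial markers had counts, KRT8 was the most abundant over all libraries (KRT7 in 6 of the 7 hyperoxia libraries), and their summed level was 3673 to 7370 CPM (median 4397) in the 7 hyperoxia libraries and 7629 to 12290 CPM (median 8876) in the 7 normoxia libraries. KRT8, an epithelial keratin, fell in hyperoxia with vehicle (log2 fold change -1.74, edgeR adjusted p = 2.73e-07), while KRT7, another keratin, was at -0.10 (edgeR adjusted p = 0.688). The 8 went both ways. By edgeR 0 were called higher in hyperoxia and 4 lower with vehicle, and 1 higher and 4 lower with ATRA. Untreated, 0 were higher and 3 lower. Of all genes tested, 8.68% were called higher and 8.81% lower with vehicle, 11.4% and 11.3% with ATRA, and 7.57% and 7.58% untreated. EPCAM was at 0 to 1.06 CPM in hyperoxia and 1.74 to 4.80 CPM in normoxia, so it passed the filter through normoxia alone. Any call of EPCAM as lower is therefore a description with no test. With ATRA KRT7 was at 2569 to 2798 CPM in hyperoxia and 1725 to 2316 CPM in normoxia. The median of TJP1 was 346 CPM in hyperoxia and 323.9 CPM in normoxia. Of 10 fibroblast markers 8 had counts, THY1 was the most abundant, DCN and FAP were at 0 in all 14 libraries, and the sum was 0 to 9.18 CPM (median 6.84) in hyperoxia, with 0 in hyperoxia untreated replicate 1 alone and 5.47 or more in the other 6, and 9.05 to 23.2 CPM (median 17.0) in normoxia. Of 8 immune and endothelial markers 6 had counts, CD68 was the most abundant, CD3E and VWF were at 0 in all 14 libraries, and the sum was 60.4 to 103.3 CPM (median 83.3) in hyperoxia and 17.9 to 38.6 CPM (median 26.4) in normoxia. Nearly all of it was CD68, which encodes a lysosomal protein, at 60.4 to 103.3 CPM in hyperoxia and 17.4 to 32.8 CPM in normoxia. The endothelial genes CDH5 and PECAM1 were at 0 in all 7 hyperoxia libraries, while CDH5 was at 5.22, 1.87 and 2.60 CPM in normoxia with ATRA. CDH5 passed the filter through normoxia with ATRA alone, so its oxygen comparison there is a description with no test. The part of these marker levels in the results on oxygen was not tested. Fewer cells of a type and less RNA per cell cannot be told apart in bulk RNA.

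Per kilobase of canonical transcript, the order of the 4 most abundant members depended on the group. In hyperoxia with vehicle the group means were 266.5 CPM per kb for ASPH, 176.4 for PLOD2, 163.9 for P4HB and 66.5 for LOXL2, and with ATRA they were 175.7, 96.2, 166.3 and 117.5. In normoxia with vehicle they were 237.5 CPM per kb for P4HB, 197.3 for ASPH, 61.9 for LOXL2 and 43.0 for PLOD2, and with ATRA 237.8, 134.4, 106.3 and 54.1. Untreated, ASPH was at 261.7, P4HB at 164.8, PLOD2 at 158.6 and LOXL2 at 68.9 CPM per kb in hyperoxia, and at 224.1, 219.3, 47.8 and 48.7 in normoxia. The other members lay lower in each group, with medians over the 14 libraries of 24.7 for PLOD1, 16.7 for PLOD3, 10.9 for P4HA1, 6.57 for P4HA2, 2.16 for LOXL4 and 0.279 CPM per kb for LOX.

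**Figure D1:**
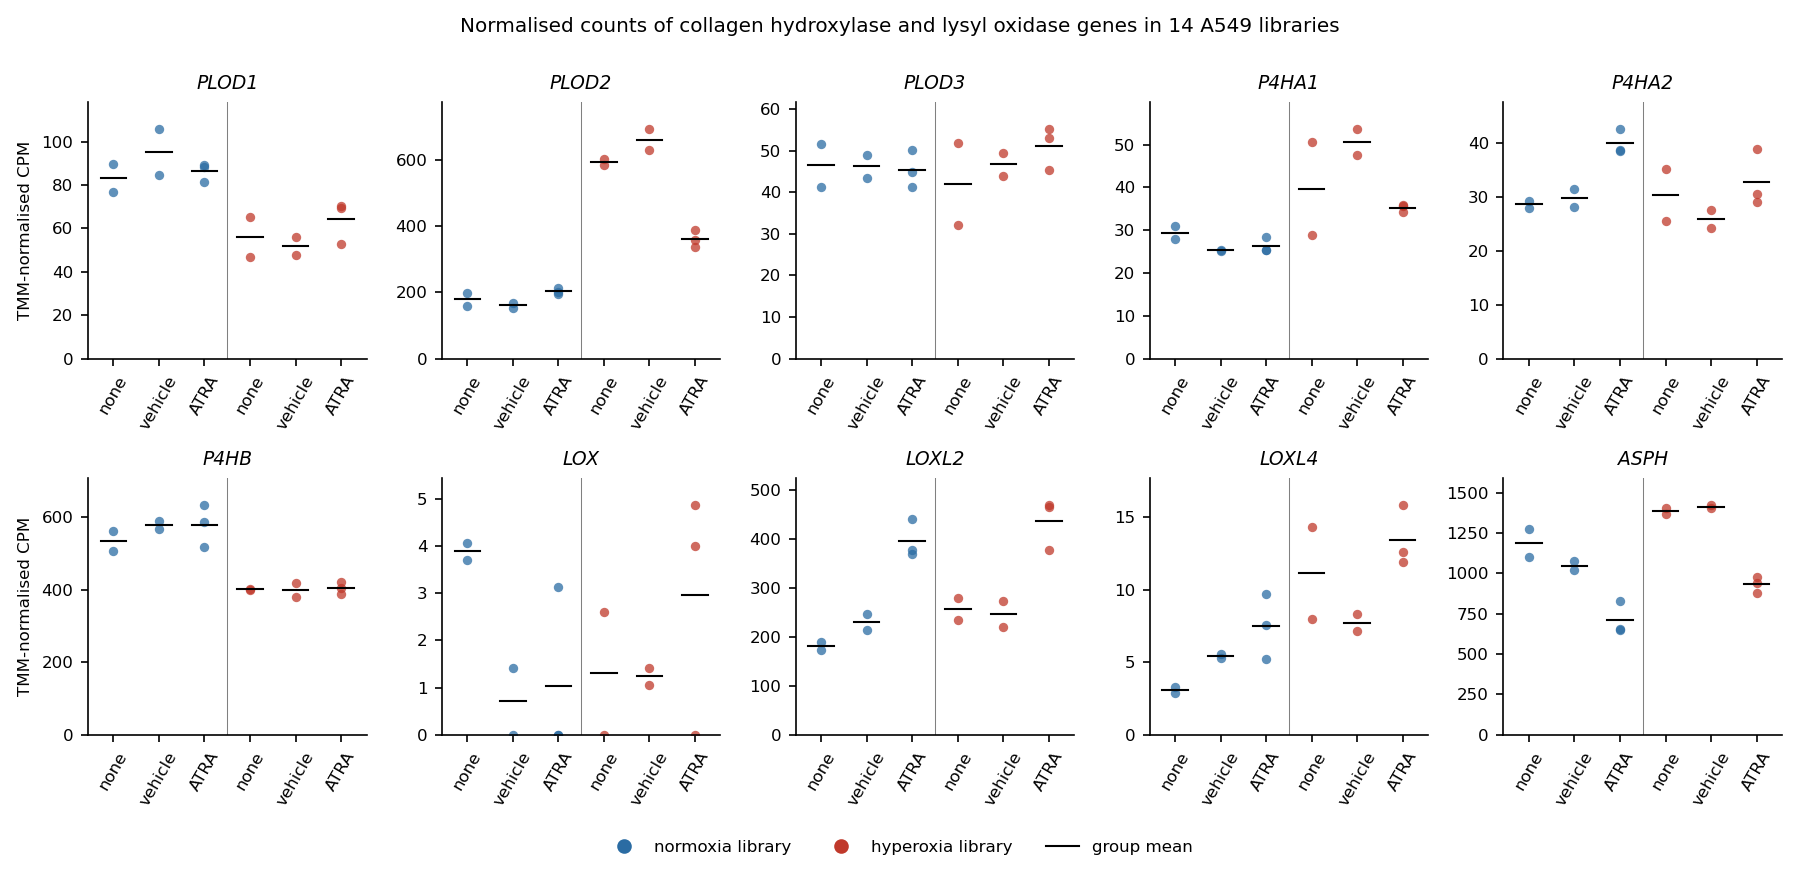
Normalised counts (TMM-normalised CPM, each y axis from 0) of the 10 genes in 14 A549 libraries, with 1 panel per gene and the 6 groups on the x axis; points are libraries, red for hyperoxia and blue for normoxia, and lines are group means. PLOD2 is at 335.6 to 692.4 CPM in hyperoxia and 153.3 to 213.5 CPM in normoxia, and PLOD1 and P4HB lie lower in every hyperoxia library than in any normoxia library.

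PLOD2 encodes the lysyl hydroxylase that acts on the telopeptides of collagen, the ends outside the helix. Its gene lies on chromosome 3, 146069440 to 146161184 (GRCh38.p14). In hyperoxia with vehicle it was at 692.4 and 630.1 CPM, in hyperoxia untreated at 586.2 and 602.6, and in hyperoxia with ATRA at 358.6, 335.6 and 388.1. In normoxia with ATRA it was at 193.8, 213.5 and 201.4 CPM, in normoxia untreated at 198.9 and 159.3, and in normoxia with vehicle at 153.3 and 169.2. All 7 hyperoxia libraries lay above all 7 normoxia libraries, and within hyperoxia the 3 ATRA libraries lay below the other 4.

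The PLOD2 group means, in descending order, were 661 ± 44.04 CPM (SD, n = 2) in hyperoxia with vehicle, 594 ± 11.6 (n = 2) in hyperoxia untreated and 361 ± 26.4 (n = 3) in hyperoxia with ATRA. Those in normoxia were 203 ± 9.92 (n = 3) with ATRA, 179 ± 28.02 (n = 2) untreated and 161 ± 11.3 (n = 2) with vehicle. The ranges of normoxia with ATRA and normoxia untreated overlapped, as did those of normoxia untreated and normoxia with vehicle. Differences between these neighbours were not tested. As a description of the contrast that chose the gene, the log2 fold change with oxygen was 2.03 (SE 0.13) with vehicle and 0.83 (SE 0.11) with ATRA. The log2 fold change with ATRA was -0.87 (SE 0.11) in hyperoxia and 0.33 (SE 0.12) in normoxia, which differ by -1.20 (SE 0.17).

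In untreated cells the PLOD2 log2 fold change with oxygen was 1.73 (SE 0.14), a ratio of 3.32, and both hyperoxia libraries lay above both normoxia libraries. This too is a description with no test, since the choice of PLOD2 may have used the untreated libraries. Without hyperoxia untreated replicate 1, the library that stood apart, the log2 fold change was 1.75.

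PLOD1, a lysyl hydroxylase of the helical part of collagen, lies on chromosome 1, 11934717 to 11975537. It was at 47.7 and 56.0 CPM in hyperoxia with vehicle and at 84.8 and 105.7 CPM in normoxia with vehicle. With ATRA it was at 70.3, 69.6 and 52.9 CPM in hyperoxia and at 89.5, 81.5 and 88.5 CPM in normoxia, and untreated at 46.9 and 65.5 against 76.8 and 90.0 CPM. Every hyperoxia library lay below every normoxia library. PLOD1 fell in hyperoxia with vehicle (log2 fold change -0.88, SE 0.19, edgeR adjusted p = 0.00174) and with ATRA (-0.43, SE 0.15, edgeR adjusted p = 0.0449). In untreated cells the log2 fold change was -0.58 (SE 0.21, edgeR adjusted p = 0.0765).

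The PLOD1 calls depended on single libraries. With vehicle, the edgeR adjusted p was 0.0539 without normoxia vehicle replicate 2 (range over left-out libraries 0.00312 to 0.0539). With ATRA, the edgeR adjusted p was 0.121 without normoxia ATRA replicate 1, 0.165 without hyperoxia ATRA replicate 3 and 0.0846 without normoxia ATRA replicate 3 (range 0.028 to 0.165). Without the 4 libraries with few low-count genes, the PLOD1 log2 fold change with ATRA was -0.75 (edgeR adjusted p = 0.00448, in a range of 0.00448 to 0.12 over alternatives), 1.74 times the -0.43 above. With ATRA the adjusted p was also 0.0504 by DESeq2, and by edgeR 0.0636 with only the groups compared and 0.12 with all 14 libraries. In untreated cells PLOD1 was called without hyperoxia untreated replicate 2 (-0.88, edgeR adjusted p = 0.00425) and was at -0.35 without hyperoxia untreated replicate 1 (edgeR adjusted p = 0.414).

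PLOD3, a lysyl hydroxylase that also adds sugars to hydroxylysine, lies on chromosome 7, 101205984 to 101217581. It ranged from 32.2 to 55.1 CPM (median 49.4) in the 7 hyperoxia libraries and from 41.2 to 51.6 CPM (median 44.8) in the 7 normoxia libraries. The ranges overlapped, and PLOD3 was called in none of the 5 comparisons (edgeR adjusted p 0.517 to 0.99). Its log2 fold change with oxygen was 0.01 (95% interval -0.41 to 0.43) with vehicle, 0.17 (-0.18 to 0.51) with ATRA and -0.16 (-0.67 to 0.36) untreated. With 1 untreated library left out, the untreated value ranged from -0.58 to 0.16.

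P4HA1 encodes a catalytic alpha subunit of prolyl 4-hydroxylase and lies on chromosome 10, 73007217 to 73096866. In hyperoxia it was at 53.5 and 47.5 CPM with vehicle, at 34.2, 35.6 and 35.9 CPM with ATRA, and at 29.0 and 50.5 CPM untreated. In normoxia it was at 25.4 and 25.2 CPM with vehicle, at 25.3, 25.3 and 28.4 CPM with ATRA, and at 31.0 and 27.8 CPM untreated. The vehicle and ATRA groups did not overlap between oxygen exposures, but untreated replicate 1 of hyperoxia lay between the normoxia untreated libraries. P4HA1 rose in hyperoxia with vehicle (1.99-fold, log2 fold change 1.00, SE 0.22, edgeR adjusted p = 0.00286). That adjusted p was 0.0659 without hyperoxia vehicle replicate 1 and 0.0515 without normoxia vehicle replicate 2 by edgeR (range over left-out libraries 0.0255 to 0.0659).

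With ATRA the P4HA1 oxygen log2 fold change was 0.42 (SE 0.18, edgeR adjusted p = 0.113), and in untreated cells it was 0.42 (SE 0.27, edgeR adjusted p = 0.309). In untreated cells it was -0.08 without hyperoxia untreated replicate 2 (edgeR adjusted p = 0.826) and 0.77 without hyperoxia untreated replicate 1 (edgeR adjusted p = 0.0614). Without the 4 libraries with few low-count genes it was called in untreated cells (0.77, edgeR adjusted p = 0.0214, in a range of 0.0214 to 0.668 over alternatives). Whether P4HA1 differs in its response between vehicle and ATRA was not tested, since that contrast chose PLOD2. Its ATRA log2 fold changes were -0.52 (SE 0.20) in hyperoxia and 0.06 (SE 0.21) in normoxia, neither called (edgeR adjusted p = 0.212 and 0.982).

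P4HA2, another alpha subunit, lies on chromosome 5, 132190147 to 132227853, and ranged from 24.2 to 38.8 CPM in hyperoxia (median 29.1) and from 27.9 to 42.4 CPM in normoxia (median 31.4). The exposures overlapped, and P4HA2 was called in none of the 5 comparisons (edgeR adjusted p 0.34 to 0.843). The gene P4HA2-AS1 overlaps it and had 244 counts against 1870 for P4HA2. The libraries were stranded, but reads in the stretch that both genes share cannot be told apart, because the strand setting of the counting is not given in the sources used here.

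P4HB encodes protein disulfide isomerase, the beta subunit of prolyl 4-hydroxylase, and lies on chromosome 17, 81843166 to 81860535. In hyperoxia it was at 418.5 and 380.5 CPM with vehicle, at 405.5, 420.9 and 389.3 CPM with ATRA, and at 402.7 and 400.7 CPM untreated. In normoxia it was at 569 and 589 CPM with vehicle, at 633, 519 and 586 CPM with ATRA, and at 506 and 563 CPM untreated. Every hyperoxia library lay below every normoxia library. P4HB fell in hyperoxia in the 3 treatments, with vehicle (log2 fold change -0.54, SE 0.13, edgeR adjusted p = 0.00519), with ATRA (-0.52, SE 0.11, edgeR adjusted p = 0.00106) and untreated (-0.41, SE 0.12, edgeR adjusted p = 0.0338).

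The P4HB call with ATRA held with each of the 6 libraries left out in turn (edgeR adjusted p 0.000394 to 0.00882). The edgeR adjusted p with vehicle was 0.0809 without hyperoxia vehicle replicate 2 (range 0.0194 to 0.0809). In untreated cells the edgeR adjusted p was 0.115 without hyperoxia untreated replicate 1 and 0.15 without normoxia untreated replicate 2 (range 0.0253 to 0.15), 0.0665 without the 4 libraries with few low-count genes, and 0.312 with only the untreated groups in the fit. With ATRA against vehicle P4HB was at 0.02 (95% interval -0.22 to 0.27) in hyperoxia and 0.00 (-0.24 to 0.25) in normoxia on the log2 scale.

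The start sites of 4 members, PLOD2 and the lysyl and prolyl hydroxylase genes called with oxygen, are shown as RefSeq promoter windows, 250 bases before to 50 after the start (GRCh38.p14), since hypoxia-response elements share the letters ACGTG or GCGTG. Capitals mark ACGTG or GCGTG on either strand, so CACGT and CACGC are their reverse complements. The windows are chr3:146161135-146161434 for PLOD2, chr10:73096817-73097116 for P4HA1, chr1:11934467-11934766 for PLOD1 and chr17:81860486-81860785 for P4HB, each printed 5′ to 3′ on the strand of its gene (plus for PLOD1, minus for the others).
PLOD2: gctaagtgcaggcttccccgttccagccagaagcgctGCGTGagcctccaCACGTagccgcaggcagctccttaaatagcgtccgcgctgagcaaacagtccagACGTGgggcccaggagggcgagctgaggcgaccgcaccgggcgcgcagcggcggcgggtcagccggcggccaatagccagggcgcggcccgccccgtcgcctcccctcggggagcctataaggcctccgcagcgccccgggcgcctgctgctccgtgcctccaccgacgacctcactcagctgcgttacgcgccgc
P4HA1: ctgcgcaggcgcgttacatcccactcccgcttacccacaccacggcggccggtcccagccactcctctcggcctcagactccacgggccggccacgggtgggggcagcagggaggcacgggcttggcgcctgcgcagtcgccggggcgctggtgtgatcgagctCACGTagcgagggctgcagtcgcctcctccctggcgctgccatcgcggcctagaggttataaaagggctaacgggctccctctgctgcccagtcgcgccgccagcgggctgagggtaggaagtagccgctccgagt
PLOD1: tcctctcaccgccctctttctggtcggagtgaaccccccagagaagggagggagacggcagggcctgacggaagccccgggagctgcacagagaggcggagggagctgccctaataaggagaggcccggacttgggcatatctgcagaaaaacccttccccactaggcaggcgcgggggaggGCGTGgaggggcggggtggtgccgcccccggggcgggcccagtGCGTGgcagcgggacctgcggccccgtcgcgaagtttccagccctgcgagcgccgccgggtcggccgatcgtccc
P4HB: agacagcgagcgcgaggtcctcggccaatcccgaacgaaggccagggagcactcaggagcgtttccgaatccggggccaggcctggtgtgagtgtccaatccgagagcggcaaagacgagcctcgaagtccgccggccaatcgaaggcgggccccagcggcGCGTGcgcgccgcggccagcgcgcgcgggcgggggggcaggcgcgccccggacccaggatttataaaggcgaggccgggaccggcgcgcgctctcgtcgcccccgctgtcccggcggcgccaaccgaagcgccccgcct
The letters were found 3 times for PLOD2, 1 time each for P4HA1 and P4HB and 2 times for PLOD1, so they were in the windows of genes that were higher in hyperoxia and of genes that were lower. Of 35116 windows of the same length, 48.4% hold them, 21.4% ACGTG and 36.5% GCGTG. The windows of PLOD3, P4HA2 and LOXL4 hold none, and of the 3 windows of LOX 1 holds 4, while the other 2 overlap and hold the same 2. The retinoic acid receptor half-site AGGTCA was in 13.8% of the 35116 windows and in no window of the 8 members examined, while windows of LOXL2 and ASPH were not analysed here. A match describes letters, not a bound site, and a window without one says nothing of the factor.

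LOX, the founding lysyl oxidase, lies on chromosome 5, 122063195 to 122078259, and was near the floor. It had 120 counts over the 14 libraries and was at 0 in 5 of them, with 0 to 4.87 CPM in hyperoxia and 0 to 4.08 CPM in normoxia. LOX was called in none of the 5 comparisons (edgeR adjusted p 0.442 to 0.986), and the 95% interval of its oxygen log2 fold change with vehicle was -2.79 to 3.99. LOX was thus neither called nor shown to be unchanged. Of the 5 libraries at 0, hyperoxia untreated replicate 1, hyperoxia ATRA replicate 2 and normoxia ATRA replicate 2 were among the 4 with few low-count genes, and without those 4 LOX was not called either (edgeR adjusted p 0.519 to 0.838). SRFBP1 overlaps LOX and had 780 counts. Reads that the counting left as ambiguous between genes, 0.401 to 0.527% per library, were among the summary entries left out. Whether LOX lost reads in this way is not known.

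LOXL2, a secreted lysyl oxidase of basement membranes, lies on chromosome 8, 23296897 to 23404120. In hyperoxia it was at 274.3 and 220.7 CPM with vehicle, at 469, 465 and 378 CPM with ATRA, and at 233.5 and 279.5 CPM untreated. In normoxia it was at 214.8 and 246 CPM with vehicle, at 440.3, 369 and 377 CPM with ATRA, and at 190.1 and 172.2 CPM untreated. In both exposures every ATRA library lay above every vehicle and untreated library. LOXL2 rose with ATRA in hyperoxia (1.77-fold, log2 fold change 0.82, SE 0.14, edgeR adjusted p = 0.00138) and in normoxia (1.71-fold, 0.78, SE 0.14, edgeR adjusted p = 0.00367). The edgeR adjusted p was 0.11 without hyperoxia vehicle replicate 2 in hyperoxia (range 0.00101 to 0.11) and 0.157 without normoxia vehicle replicate 1 in normoxia (range 0.00503 to 0.157).

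The LOXL2 oxygen effect was 0.10 (SE 0.15, edgeR adjusted p = 0.735) with vehicle and 0.14 (SE 0.12, edgeR adjusted p = 0.431) with ATRA on the log2 scale. In untreated cells LOXL2 rose in hyperoxia (0.50, SE 0.16, edgeR adjusted p = 0.0456). The edgeR adjusted p there was 0.17 without hyperoxia untreated replicate 2, 0.161 without normoxia untreated replicate 1 and 0.278 without normoxia untreated replicate 2 (range 0.0294 to 0.278), and the log2 fold change without hyperoxia untreated replicate 2 was 0.31. With only the untreated groups in the fit, the edgeR adjusted p of LOXL2 was 0.31 (range over alternatives 0.0107 to 0.31). The untreated LOXL2 call was also lost with the replicate block described at the end.

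LOXL4, another lysyl oxidase, lies on chromosome 10, 98247690 to 98268194. In hyperoxia it was at 7.16 and 8.30 CPM with vehicle, at 11.9, 12.6 and 15.8 CPM with ATRA, and at 7.99 and 14.3 CPM untreated. In normoxia it was at 5.56 and 5.32 CPM with vehicle, at 7.56, 9.68 and 5.21 CPM with ATRA, and at 3.31 and 2.88 CPM untreated. Each hyperoxia group lay above its normoxia group, with the widest spread in hyperoxia untreated. LOXL4 rose in hyperoxia in untreated cells (3.55-fold, log2 fold change 1.83, SE 0.57, edgeR adjusted p = 0.0409), while with vehicle it was at 0.51 (edgeR adjusted p = 0.531) and with ATRA at 0.85 (edgeR adjusted p = 0.111). The untreated call was lost without hyperoxia untreated replicate 2 (1.30, edgeR adjusted p = 0.0666), normoxia untreated replicate 1 (0.215) or normoxia untreated replicate 2 (0.219), in a range of 0.00946 to 0.219. It was also lost with no filter (edgeR adjusted p = 0.129), with only the untreated groups in the fit (0.431) and with the replicate block described at the end. With vehicle LOXL4 was called only where vehicle and untreated libraries were pooled (1.14, edgeR adjusted p = 0.0461, in a range of 0.0461 to 0.744 over alternatives). With ATRA LOXL4 was called only without the 4 libraries with few low-count genes (1.30, edgeR adjusted p = 0.0399, in a range of 0.0399 to 0.261 over alternatives).

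ASPH hydroxylates aspartate and asparagine in EGF-like domains and lies on chromosome 8, 61500556 to 61714592. In hyperoxia it was at 1404 and 1421 CPM with vehicle, at 876, 939 and 980 CPM with ATRA, and at 1371 and 1403 CPM untreated. In normoxia it was at 1074 and 1018 CPM with vehicle, at 656, 829.9 and 651 CPM with ATRA, and at 1272 and 1104 CPM untreated. In each treatment the hyperoxia libraries lay above the normoxia libraries, and in each exposure the ATRA libraries lay below the others. ASPH rose in hyperoxia with vehicle (log2 fold change 0.43, SE 0.13, edgeR adjusted p = 0.0267) and with ATRA (0.39, SE 0.11, edgeR adjusted p = 0.0134), and in untreated cells it was at 0.22 (SE 0.14, edgeR adjusted p = 0.283). With 1 untreated library left out, the untreated value ranged from 0.085 to 0.29. With ATRA against vehicle, ASPH fell in hyperoxia (-0.60, SE 0.12, edgeR adjusted p = 0.00705) and in normoxia (-0.55, SE 0.12, edgeR adjusted p = 0.0187).

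Each ASPH call was lost with some single library left out. With vehicle, leaving out any of the 4 libraries gave an edgeR adjusted p of 0.132 to 0.221, and a fit of all 14 libraries gave 0.0579. For oxygen with ATRA the edgeR adjusted p was 0.0608 without normoxia ATRA replicate 1, 0.0554 without hyperoxia ATRA replicate 2, 0.0633 without hyperoxia ATRA replicate 3 and 0.068 without normoxia ATRA replicate 3 (range 0.00123 to 0.068). For ATRA in hyperoxia it was 0.0891 without hyperoxia vehicle replicate 1 and 0.101 without hyperoxia vehicle replicate 2 by edgeR (range 0.013 to 0.101), and 0.0539 without the 4 libraries. For ATRA in normoxia the edgeR adjusted p was 0.1 without normoxia ATRA replicate 1, 0.057 without normoxia ATRA replicate 3, 0.282 without normoxia vehicle replicate 1 and 0.136 without normoxia vehicle replicate 2 (range 0.0023 to 0.282), and 0.0746 with only the groups compared and 0.07 with all 14 libraries. The direction was the same in all of these. The oxygen effect with ATRA was 0.58 without the 4 libraries (edgeR adjusted p = 0.00231, in a range of 0.000692 to 0.049 over alternatives), 1.51 times that with them. CLVS1 overlaps ASPH with 5610 counts against 63609.

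**Figure D2:**
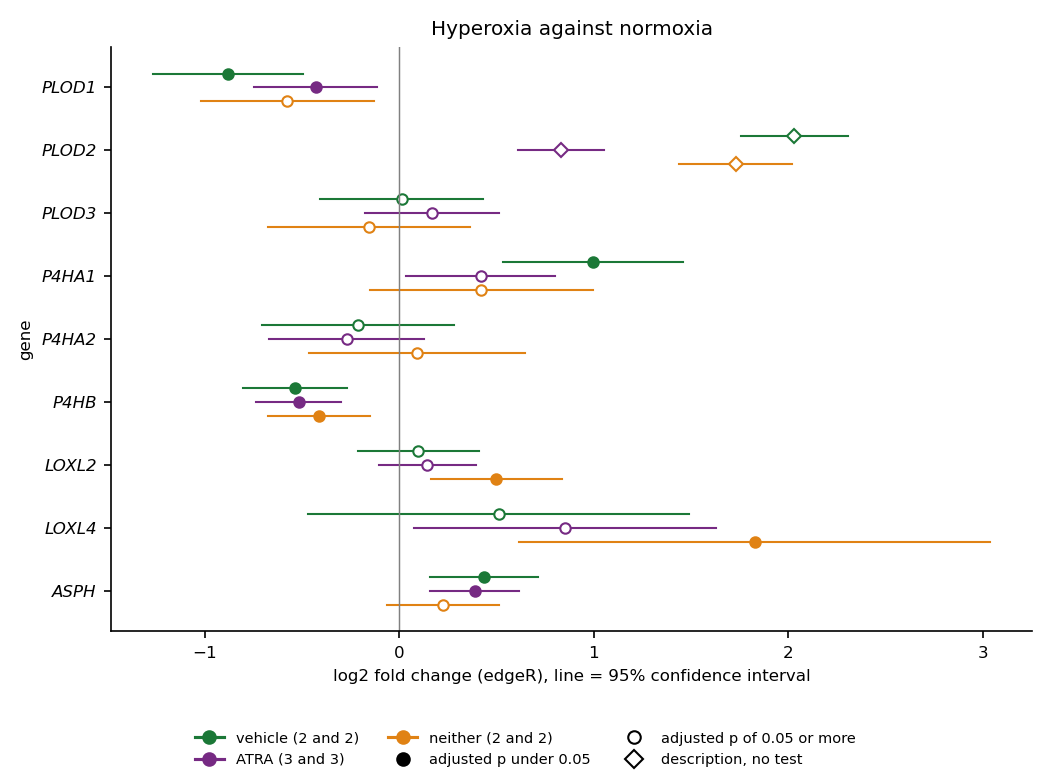
Log2 fold change (hyperoxia against normoxia, edgeR) of 9 members on the x axis, with vehicle, with ATRA and untreated; lines are 95% confidence intervals, filled points have an adjusted p under 0.05 and open points 0.05 or more, and diamonds mark PLOD2 values described with no test. LOX is left out because its intervals are too wide to draw at this scale, and PLOD2 lies to the right of 0 and P4HB to the left of 0 in the 3 treatments.

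Counted over the comparisons and leaving PLOD2 aside, 2 of the other 9 members were called higher (P4HA1 and ASPH) and 2 lower (PLOD1 and P4HB) in hyperoxia with vehicle, where 8.68% of all genes tested were called higher and 8.81% lower. With ATRA 1 was higher (ASPH) and 2 were lower (PLOD1 and P4HB), where 11.4% and 11.3% of all genes were called. Untreated, 2 of the 9 were higher (LOXL2 and LOXL4) and 1 was lower (P4HB), where 7.57% and 7.58% of all genes were called. Those untreated calls depended on the fit. With only the untreated groups in it, 58 genes (0.419%) and no member were called. With a replicate block by order of deposit, described at the end, LOXL2 and LOXL4 were not called. The ranges of the 7 hyperoxia and 7 normoxia libraries did not overlap for 2 of the other 9 members, PLOD1 and P4HB, both lower, where 7.31% of 15339 genes were lower and 6.34% higher without overlap. Median log2 fold changes were 0.10 for the 9 members against 0.01 for all genes with vehicle, 0.17 against 0.01 with ATRA, and 0.09 against -0.10 untreated. The 3 oxygen comparisons share no library.

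For ATRA in hyperoxia 1 of the other 9 members was called higher (LOXL2) and 1 lower (ASPH), where 1.52% and 0.695% of all genes tested were called. For ATRA in normoxia it was LOXL2 higher and ASPH lower, where 0.816% and 0.435% were called. Median log2 fold changes of the 9 were 0.30 in hyperoxia, against 0.00 for all genes, and 0.06 in normoxia, against 0.00. The 2 ATRA comparisons share no library with each other, but each shares its vehicle libraries with the vehicle oxygen comparison and its ATRA libraries with the ATRA oxygen comparison, so no overlap between them is given. In hyperoxia the summed epithelial markers were 7370, 6298 and 5848 CPM with ATRA and 3673 and 3845 CPM with vehicle. In normoxia they were 12290, 9066 and 10830 CPM with ATRA and 7995 and 8850 CPM with vehicle, so in both exposures every ATRA library lay above every vehicle library in this sum. By edgeR 5 of the 8 markers were called higher with ATRA in hyperoxia and 0 in normoxia, and 0 were called lower. In normoxia 7 of the 8 had a log2 fold change above 0, while KRT19 had a mean of 73.3 CPM with ATRA and 95.4 CPM with vehicle. The part of these markers in the ATRA results was not tested.

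**Figure D3:**
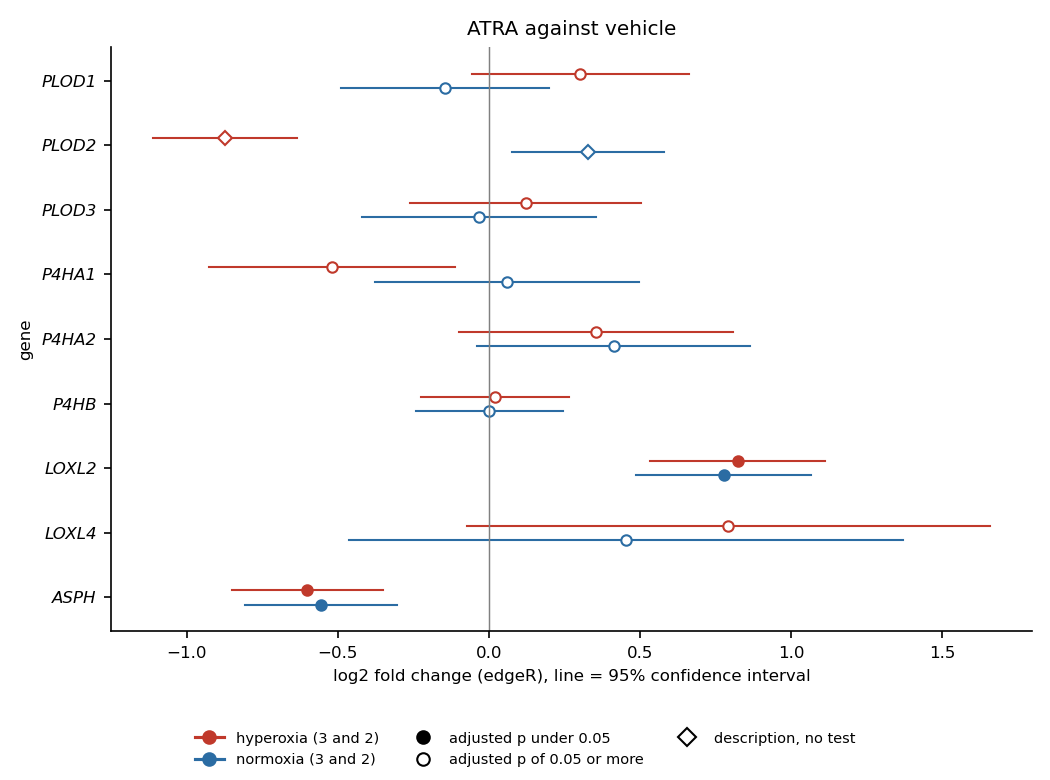
Log2 fold change (ATRA against vehicle, edgeR) of 9 members on the x axis, in hyperoxia and in normoxia; lines are 95% confidence intervals, filled points have an adjusted p under 0.05 and open points 0.05 or more, and diamonds mark PLOD2 values described with no test. LOX is left out because its intervals are too wide, LOXL2 lies right of 0 and ASPH left of 0 in both exposures, and PLOD2 lies at -0.87 in hyperoxia and 0.33 in normoxia.

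For members other than PLOD2 the difference between the ATRA effects in hyperoxia and normoxia is given as a description, since that contrast chose a member. It was -0.58 (SE 0.29) for P4HA1, 0.45 (SE 0.24) for PLOD1, 0.05 (SE 0.19) for LOXL2 and -0.05 (SE 0.17) for ASPH on the log2 scale. For P4HB it was 0.02 (SE 0.17), for PLOD3 0.15 (SE 0.26), for P4HA2 -0.06 (SE 0.31), for LOXL4 0.34 (SE 0.60) and for LOX, with its low counts, 0.90 (SE 2.10). That of PLOD2 was -1.20, as given above.

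The 5 genes most like PLOD2 over the 14 libraries, by Pearson correlation of log2 CPM among 15338 genes, were BIRC3 (r = 0.983), MAN2A1 (0.974), AFF4 (0.971), EGFR (0.971) and ASCC3 (0.971). The libraries fall into the 2 oxygen exposures, which these correlations share, so they describe that split in large part. BIRC3 was at 197.6 to 477.4 CPM (median 394.9) in hyperoxia and 45.4 to 68.8 CPM (median 61.4) in normoxia. Among the members P4HA1 ranked 483 (0.851), while PLOD1 (-0.902) and P4HB (-0.893) ranked 15172 and 15139.

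Genes around the members were taken as 6 lists, and some of their calls below depended on the fit. By edgeR, 8.68% of all genes tested were called higher in hyperoxia with vehicle and 8.81% lower. With ATRA these shares were 11.4% and 11.3%, and untreated they were 7.57% and 7.58%. For ATRA in hyperoxia 1.52% were called higher and 0.695% lower, and in normoxia 0.816% and 0.435%. No list was tested against these shares. The 3 called genes of smallest p in each list and comparison are named, with every comparison that called them. With only the 4 untreated libraries in the fit 58 genes were called in place of 2324, and of the list genes named for untreated cells ADM and STRA6 alone kept the call (edgeR adjusted p = 0.0454 and 0.0482). With all 14 libraries in the fit, the edgeR adjusted p of the oxygen effect with vehicle was 0.0867 for KDELR2, 0.0726 for COL6A2, 0.0641 for EPAS1, 0.089 for HIF1AN and 0.075 for STRA6, and that with ATRA was 0.0628 for SERPINH1. In the same fit the edgeR adjusted p of the ATRA effect was 0.142 for COL4A2 and 0.12 for EGLN2 in hyperoxia, and 0.0894 for ENO1 in normoxia. With vehicle and untreated libraries pooled, COL4A2 (0.50, edgeR adjusted p = 0.109) and EGLN2 (0.64, edgeR adjusted p = 0.0679) were not called in hyperoxia. With only the groups compared, the edgeR adjusted p was 0.0554 for EGLN2 and 0.203 for ENO1, and with no filter it was 0.0562 for HIF1AN with vehicle. Without the 4 libraries with few low-count genes, COL4A2 in hyperoxia was at 0.44 (edgeR adjusted p = 0.284) and untreated HIF1AN at 0.47 (edgeR adjusted p = 0.0695). With the replicate block described at the end, the edgeR adjusted p was 0.0526 for untreated HIF1AN. In that fit it was 0.0785 for COL4A2 and 0.0508 for ENO1 for ATRA in hyperoxia, and 0.0819 for ENO1 in normoxia, all by edgeR. STRA6 rose 1.33 in hyperoxia with vehicle and untreated libraries together, over 1.5 times its value with vehicle alone, and DDIT4 rose 0.70 with ATRA in hyperoxia without the 4 libraries (edgeR adjusted p = 0.0498).

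Of 10 other genes of the same families 9 were tested, the prolyl hydroxylases P4HA3 and P4HTM, the lysyl oxidase LOXL3, the prolyl 3-hydroxylase family P3H1, P3H2, P3H3 and P3H4, and ASPHD1 and ASPHD2. LOXL1 did not pass the filter, with 10 counts over the 14 libraries. With vehicle 0 were called by edgeR and 0 by DESeq2, with 1 at an unadjusted p under 0.05, and untreated 0 by either tool, with 0 at that p. With ATRA only P3H1 was called, and it fell in hyperoxia (log2 fold change -1.16, SE 0.31, edgeR adjusted p = 0.00864). P3H1 was at -1.78 without hyperoxia ATRA replicate 3, and at -0.47 without the 4 libraries with few low-count genes (edgeR adjusted p = 0.229). For ATRA 0 were called in either exposure by edgeR or DESeq2, with 0 at an unadjusted p under 0.05.

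Of 22 genes of collagen folding, glycosylation and processing 15 were tested. In hyperoxia 0 were higher and 4 lower with vehicle, 2 higher and 3 lower with ATRA, and 0 higher and 1 lower untreated. FN1 (fibronectin) fell with vehicle (log2 fold change -0.92, edgeR adjusted p = 0.00383) and with ATRA (-0.73, edgeR adjusted p = 0.00389), but was not called with vehicle without normoxia vehicle replicate 2 (-0.67, edgeR adjusted p = 0.0928), and was at -1.21 with ATRA without the 4 libraries. PPIB, a collagen prolyl isomerase, fell with vehicle (-0.53, edgeR adjusted p = 0.0107) and untreated (-0.52, edgeR adjusted p = 0.0242). With ATRA it also fell (-0.42, edgeR adjusted p = 0.0118), a call lost without normoxia ATRA replicate 1 (edgeR adjusted p = 0.055). The PPIB edgeR adjusted p was 0.0508 without hyperoxia vehicle replicate 1, 0.0964 without hyperoxia vehicle replicate 2, 0.17 without normoxia vehicle replicate 1 and 0.11 without normoxia untreated replicate 1. SERPINH1, the collagen chaperone HSP47, rose with ATRA present (0.63, edgeR adjusted p = 0.000985). KDELR2, a receptor that returns chaperones to the endoplasmic reticulum, fell with vehicle (-0.56, edgeR adjusted p = 0.0154) and with ATRA (-0.64, edgeR adjusted p = 0.000915). Its vehicle call was lost without any of the 4 vehicle libraries (edgeR adjusted p 0.0612 to 0.133), and its ATRA call without the 4 libraries with few low-count genes (-0.39, edgeR adjusted p = 0.0768). For ATRA 0 were called in either exposure by edgeR or DESeq2, with 5 in hyperoxia and 2 in normoxia at an unadjusted p under 0.05.

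Of 20 collagen chain and elastin genes 16 were tested with vehicle and with ATRA, and 17 untreated. In hyperoxia 4 were higher and 2 lower with vehicle, 3 higher and 1 lower with ATRA, and 5 higher and 1 lower untreated. The basement membrane chain COL4A6 rose with vehicle (log2 fold change 1.76, edgeR adjusted p = 4.78e-06), with ATRA (1.77, edgeR adjusted p = 4.71e-07) and untreated (1.38, edgeR adjusted p = 0.00539). COL4A5, its partner chain, rose with vehicle (1.14, edgeR adjusted p = 0.000996), with ATRA (1.05, edgeR adjusted p = 0.00029) and untreated (1.16, edgeR adjusted p = 0.00364). The untreated calls were lost without normoxia untreated replicate 2 (edgeR adjusted p = 0.0888 for COL4A6 and 0.0557 for COL4A5), and COL4A6 was at 0.82 without hyperoxia untreated replicate 2. COL7A1, the anchoring fibril collagen, rose in hyperoxia with ATRA present (0.92, edgeR adjusted p = 0.000292) and untreated (0.90, edgeR adjusted p = 0.00876), and with vehicle it was at 0.47 (edgeR adjusted p = 0.111). Its untreated edgeR adjusted p was 0.0848 without normoxia untreated replicate 1, 0.0639 without normoxia untreated replicate 2 and 0.116 with only the groups compared. COL6A2 rose with vehicle (1.55, edgeR adjusted p = 0.00617), and its edgeR adjusted p was 0.105 without hyperoxia vehicle replicate 2 and 0.127 without normoxia vehicle replicate 2. COL1A1, a fibrillar chain that is also a fibroblast marker, was at 0 CPM in both hyperoxia untreated libraries and at 7.41 and 5.28 CPM in the normoxia untreated libraries. No hyperoxia library was above 1.62 CPM, so COL1A1 passed the filter through normoxia alone. Its calls as lower with vehicle and untreated, counted above, are therefore a description with no test. With vehicle its log2 fold change was -3.30, and -4.97 without hyperoxia vehicle replicate 2. COL4A2 rose with ATRA in hyperoxia (0.64, edgeR adjusted p = 0.038) and normoxia (0.92, edgeR adjusted p = 0.00367). These calls were lost in hyperoxia without hyperoxia ATRA replicate 1 (0.144), ATRA replicate 2 (0.0705), vehicle replicate 1 (0.287) or vehicle replicate 2 (0.405), and in normoxia without normoxia vehicle replicate 2 (0.18), all edgeR adjusted p.

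Of 8 HIF hydroxylases and regulators 2 were higher and 0 lower in hyperoxia with vehicle, 3 higher and 1 lower with ATRA, and 2 higher and 1 lower untreated. HIF1AN, the asparaginyl hydroxylase of HIF, was called higher with vehicle (0.47, edgeR adjusted p = 0.0387), with ATRA (0.69, edgeR adjusted p = 0.000419) and untreated (0.63, edgeR adjusted p = 0.0148). EPAS1, which encodes HIF-2 alpha, was called higher with vehicle (0.57, edgeR adjusted p = 0.0133), with ATRA (0.66, edgeR adjusted p = 0.000584) and untreated (0.79, edgeR adjusted p = 0.00775), and HIF1A was called lower with ATRA (-0.55, edgeR adjusted p = 0.000699) and untreated (-0.42, edgeR adjusted p = 0.0382). With vehicle, both HIF1AN and EPAS1 lost the call without any of the 4 vehicle libraries (edgeR adjusted p 0.0543 to 0.521 and 0.0695 to 0.126), and HIF1AN was at 0.27 without hyperoxia vehicle replicate 2. In untreated cells the edgeR adjusted p without hyperoxia untreated replicate 1 was 0.14 for HIF1AN, 0.0697 for EPAS1 and 0.0652 for HIF1A, and without normoxia untreated replicate 1 it was 0.066, 0.117 and 0.172, while HIF1AN was also at 0.145 without normoxia untreated replicate 2. The HIF prolyl hydroxylases EGLN1 and EGLN3 were called in none of the 5 comparisons, and EGLN2 was called higher with ATRA in hyperoxia only (0.73, edgeR adjusted p = 0.0246). That call was lost without ATRA replicate 2 (0.123), ATRA replicate 3 (0.0619), vehicle replicate 1 (0.319) or vehicle replicate 2 (0.242) of hyperoxia, all edgeR adjusted p. For ATRA in normoxia 0 of the 8 were called by edgeR or DESeq2, with 1 at an unadjusted p under 0.05.

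Of 23 HIF target genes tested, 4 were higher and 3 lower in hyperoxia with vehicle, 4 higher and 4 lower with ATRA, and 4 higher and 2 lower untreated. ADM, which encodes adrenomedullin, rose 2.41, 2.14 and 2.38 on the log2 scale with vehicle, with ATRA and untreated (edgeR adjusted p = 3.57e-08, 1.08e-08 and 3.35e-06). DDIT4, a stress-induced inhibitor of mTORC1, fell by 2.01, 0.75 and 1.67 (edgeR adjusted p = 4.25e-07, 0.00179 and 0.00018), and by 1.20 with ATRA without the 4 libraries with few low-count genes. KDM4B, a histone demethylase that uses oxygen, rose with vehicle (1.00, edgeR adjusted p = 0.0149), with ATRA (1.22, edgeR adjusted p = 0.000485) and untreated (1.65, edgeR adjusted p = 0.00234), and the untreated call was lost without normoxia untreated replicate 1 (edgeR adjusted p = 0.0624). The KDM4B edgeR adjusted p with vehicle was 0.193 without hyperoxia vehicle replicate 1, 0.16 without normoxia vehicle replicate 1, 0.0721 without normoxia vehicle replicate 2 and 0.0546 with all 14 libraries. PFKFB3, a regulator of glycolysis, fell in hyperoxia with vehicle (-0.66, edgeR adjusted p = 0.00121), with ATRA (-0.41, edgeR adjusted p = 0.00914) and untreated (-0.75, edgeR adjusted p = 0.00364), with 0.205 untreated with only the groups compared. LDHA, a lactate dehydrogenase, fell in hyperoxia with ATRA (-0.38, edgeR adjusted p = 0.0109), a call lost without hyperoxia ATRA replicate 1 (edgeR adjusted p = 0.0619) and without the 4 libraries (-0.19, edgeR adjusted p = 0.399). For ATRA, 3 were higher and 3 lower in hyperoxia, and 0 higher and 2 lower in normoxia. With ATRA against vehicle LDHA fell in hyperoxia (-0.79, edgeR adjusted p = 0.00033) and normoxia (-0.59, edgeR adjusted p = 0.00792), and in normoxia the call was lost without vehicle replicate 1 (0.124) or replicate 2 (0.106), both edgeR adjusted p. PFKFB3 (0.75, edgeR adjusted p = 0.00129) and DDIT4 (1.05, edgeR adjusted p = 0.00338) rose with ATRA in hyperoxia, and the edgeR adjusted p without hyperoxia vehicle replicate 1 was 0.0826 for PFKFB3 and 0.11 for DDIT4, and without replicate 2 it was 0.0503 for DDIT4. The enolase ENO1 fell with ATRA in normoxia (-0.42, edgeR adjusted p = 0.0489), a call lost without ATRA replicate 1 (0.134), ATRA replicate 2 (0.0629), vehicle replicate 1 (0.384) or vehicle replicate 2 (0.374), all edgeR adjusted p. In hyperoxia ENO1 (-0.44, edgeR adjusted p = 0.0258) and ADM (-0.68, edgeR adjusted p = 0.0323) fell with ATRA, and both calls depended on the fit. By edgeR adjusted p they were lost without ATRA replicate 1 (0.11 for ENO1 and 0.073 for ADM), ATRA replicate 2 (0.0693 and 0.0884), vehicle replicate 1 (0.179 and 0.157) or vehicle replicate 2 (0.314 and 0.468) of hyperoxia. They were also lost without the 4 libraries (0.26 and 0.169) and with all 14 libraries (0.0528 and 0.119), and that of ADM with vehicle and untreated libraries together (0.0607), all edgeR adjusted p.

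Of 9 retinoic acid target genes tested, 5 were called higher with ATRA in hyperoxia and 6 in normoxia, and 0 lower. RARRES1, among the 9, was at 1.41 and 2.12 CPM with vehicle in hyperoxia and at 2.13 and 4.87 CPM in normoxia. With ATRA it was at 8.03 to 12.4 CPM in hyperoxia and 11.9 to 21.65 CPM in normoxia. RARRES1 passed the filter through the ATRA libraries, so any call of it counted here is a description with no test. CYP26B1, which breaks retinoic acid down, rose 4.13 in hyperoxia (edgeR adjusted p = 2.54e-08) and 3.70 in normoxia (edgeR adjusted p = 7.38e-08) on the log2 scale. DHRS3, a retinaldehyde reductase, rose 1.86 and 1.63 (edgeR adjusted p = 4.84e-07 and 4.5e-06), and STRA6, a retinol receptor, rose 1.86 and 1.47 (edgeR adjusted p = 2.75e-07 and 1.35e-05). TGM2, a transglutaminase, rose 0.70 in hyperoxia (edgeR adjusted p = 0.0144) and 1.29 in normoxia (edgeR adjusted p = 5.8e-05). Its hyperoxia call was lost without hyperoxia vehicle replicate 1 (0.0826), hyperoxia vehicle replicate 2 (0.297) or the 4 libraries with few low-count genes (0.0648), and with all 14 libraries (0.0727), all edgeR adjusted p. In hyperoxia against normoxia, 2 of the 9 were higher with vehicle, 1 with ATRA and 2 untreated, and 0 lower. STRA6 was higher with vehicle (0.56, edgeR adjusted p = 0.0242), with ATRA (0.95, edgeR adjusted p = 1.48e-05) and untreated (2.04, edgeR adjusted p = 4.29e-06), and TGM2 with vehicle (0.75, edgeR adjusted p = 0.00261) and untreated (0.88, edgeR adjusted p = 0.00364). With vehicle the STRA6 edgeR adjusted p was 0.142 without normoxia vehicle replicate 1, 0.18 without normoxia vehicle replicate 2 and 0.503 without hyperoxia vehicle replicate 2, where it was at 0.29. For oxygen with vehicle the TGM2 edgeR adjusted p was 0.0531 without hyperoxia vehicle replicate 1 and 0.0562 without normoxia vehicle replicate 2, and untreated it was 0.0807 without normoxia untreated replicate 1.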

How the data were processed

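RNA-seq counts per gene symbol were used as deposited for 15 A549 libraries. The authors used Trimmomatic 0.38 to trim the reads. Alignment (HISAT2, hg38) and counting (HTSeq) were theirs too. Tool versions other than 0.38, the annotation release and the strand setting are not given in the sources used here. The 5 summary entries per library, which held 75.17 to 78.36% of reads, were left out. Counts were tested with edgeR 4.0.16 in R 4.3.3 (quasi-likelihood, TMM, filter at 10 counts with a total of 15, Benjamini-Hochberg). Scripts were tested on simulated data. For oxygen with vehicle 38% of simulated 2-fold changes and 70% of 4-fold changes were called, and for ATRA in hyperoxia 42% and 75%. A gene not called is therefore not shown to be unchanged. Lengths were taken from GENCODE 44 and figures were drawn with matplotlib 3.10.9.

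Alternatives were DESeq2 1.42.0, RLE factors, no filter, only the groups compared, all 14 libraries, vehicle and untreated libraries together, and each library left out. A further one, without 4 libraries, was chosen after seeing the data. Members and lists were chosen with earlier results of these data known. A test of PLOD2 planned in the untreated libraries was dropped, because the choice may have used them. Named genes were all 10 members, other family genes, the HIF hydroxylases, the 3 called genes of smallest p in each list, the 5 most like PLOD2 and overlapping genes. Marker genes were named for cell identity. In the fit with 1 library left in a group, that library was assumed to vary like the others. A library whose labels conflict was put in no group.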

Additional observations from a re-analysis of the deposited data

Results flagged for a closer look

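The labels of 1 library name both hyperoxia and an adipogenic treatment, so it was put in no group and entered no comparison. Its levels, scaled together with the 14 labelled libraries, were compared with the highest normoxia library. PLOD2 was at 548.8 CPM there, above the normoxia maximum of 213.9 CPM. PLOD3 was at 56.4 CPM, above every normoxia library (51.7 CPM) and every hyperoxia library (55.2 CPM). P4HA1 was at 43.0 CPM against a normoxia maximum of 31.1 CPM, and ASPH at 1387 CPM against 1275 CPM. PLOD1 at 57.9 CPM and P4HB at 401.4 CPM lay within the hyperoxia ranges and below every normoxia library. LOXL4 at 6.83 CPM lay below every hyperoxia library (7.17 CPM or more) and within the normoxia range of 2.88 to 9.70 CPM. P4HA2 (29.5 CPM), LOX (1.98 CPM) and LOXL2 (258 CPM) lay within the ranges of both exposures.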

How the results depend on the processing

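Of the values of named genes under an alternative, 1188 kept their direction and side of the threshold, 162 kept the direction and lost the call, 4 gained a call and 36 changed sign. The 36 belonged to members not called in that comparison. For PLOD2 4 described values moved beyond the spread of replicates. The cause was not tested. DESeq2 gave no adjusted p for LOX for oxygen with vehicle or for ATRA in either exposure. A library alone in its group was assumed to vary like the others.

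Called genes for oxygen with vehicle (2616) were 4665 with only the groups compared, 1420 with 14 libraries and 4500 without the 4 libraries with few low-count genes. For oxygen with ATRA (3391) they were 1975 with 14 libraries. Untreated (2324), only the groups compared gave 58 (0.419%), with 0 members. For ATRA in hyperoxia (331) they were 522 with no filter, 116 with 14 libraries, 182 with vehicle and untreated libraries together, and 203 without the 4 libraries, with 1 member. For ATRA in normoxia (187) they were 300 with no filter, 70 with 14 libraries and 432 without the 4 libraries, with 1 member called with only the groups compared and 1 with 14 libraries.

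With 1 library left out, called genes were 1386 to 1523 for oxygen with vehicle, 969 to 7364 untreated, 83 to 449 for ATRA in hyperoxia and 56 to 165 in normoxia. For oxygen with ATRA, where each group kept 2 libraries or more, 2715 to 3359 genes were called. These were 18.2 to 22.7% of the genes tested, and 1 to 3 of the 9 members other than PLOD2 were called there.

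No label pairs the libraries, but in order of deposit they form 3 sets. Within a set, deviations from group means correlated at -0.0529 to 0.197 over 28 pairs of libraries of different groups, with 2 over 0.1, so the sets were not taken to pair libraries. Of 14 libraries 10 correlated best with their own set, a hint from the data and not the design. In a group of 2 libraries the deviations from the mean mirror each other, so these 14 matches are not independent. Whether 10 is more than unrelated sets would give was not tested. An edgeR fit with the set as a replicate block, chosen after seeing the data, called 2720 genes for oxygen with vehicle, 3501 with ATRA and 1808 untreated, and 251 in hyperoxia and 175 in normoxia for ATRA. Untreated, 1 member was called in place of 3, and 11.8% of genes tested in place of 15.2%. The edgeR adjusted p was 0.117 for LOXL2 and 0.0683 for LOXL4. For other named genes it was 0.0526 for HIF1AN untreated, 0.0785 for COL4A2 and 0.0508 for ENO1 for ATRA in hyperoxia, and 0.0819 for ENO1 in normoxia, all by edgeR. Values that changed sign with the block were 0.019 for PLOD3 and -0.044 for P4HA2 untreated, -0.012 for P4HB and -0.52 for LOX for ATRA in hyperoxia, and 0.044 for PLOD3, -0.034 for P4HB and -1.34 for LOX in normoxia.

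Other log2 fold changes changed sign as follows. For oxygen with vehicle PLOD3 was at -0.0021 by DESeq2, -0.0019 with RLE factors and -0.071 with vehicle and untreated libraries together, where LOX was at -0.91. Without the 4 libraries LOXL2 was at -0.11 for oxygen with ATRA, PLOD3 at 0.16 and P4HA2 at -0.17 untreated, and P4HB at -0.036 for ATRA in hyperoxia. For ATRA in normoxia P4HB was at -0.0077 with no filter, and P4HA1 at -0.046 and LOX at -1.11 with vehicle and untreated libraries together. With 1 library left out the ranges were -0.10 to 0.084 for PLOD3, -0.21 to 5.33 for LOX and -0.089 to 0.22 for LOXL2 for oxygen with vehicle. Untreated they were -0.58 to 0.16 for PLOD3, -0.079 to 0.77 for P4HA1 and -0.17 to 0.24 for P4HA2. For ATRA they were -0.052 to 0.081 for P4HB in hyperoxia, and in normoxia -0.066 to 0.074 for P4HB, -0.30 to 0.028 for PLOD1, -0.12 to 0.060 for PLOD3 and -4.80 to 5.13 for LOX.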
